A study of Mus musculus with 6 samples.

Results

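The let-7 family in the mouse heart was followed through 10 mature miRNAs: mmu-let-7a-5p, mmu-let-7b-5p, mmu-let-7c-5p, mmu-let-7d-5p, mmu-let-7e-5p, mmu-let-7f-5p, mmu-let-7g-5p, mmu-let-7i-5p, mmu-miR-98-5p, and mmu-let-7d-3p, the strand opposite to let-7d-5p in the same hairpin. They were picked by name from a table of 2009 mature miRNA names, by a rule that uses no measured value, although the family was chosen for description with earlier results of these data known. All 10 passed a filter on low values that 409 of the 2009 names passed, which asks for a mean of at least 1 RPM (reads per 1000000 reads) and for reads in no fewer than 3 of 6 libraries.

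The libraries came from hearts of male mice, each mounted on a Langendorff system, in which an isolated heart is perfused through the aorta. For the 3 sham libraries the heartbeat was not stopped. For the 3 libraries of the ischemia-reperfusion (I/R) group a cardioplegic solution (Tomas, as the labels spell it) held contraction for 30 min, and reperfusion for 1 h followed. Hearts of both groups, sham included, were thus perfused outside the body, and no heart left in place serves as a control. Neither strain nor age is given in the sources used here.

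A miRNA is a short RNA cut from a hairpin precursor. Loaded into an Argonaute protein, it represses mRNAs that pair with its seed, the bases near its 5′ end. The other strand of the hairpin, the passenger arm, is usually degraded. let-7 was found as a regulator of developmental timing in worms and is one of the most conserved miRNA families. Its members are scarce in embryonic cells, where the RNA-binding protein LIN28 blocks their maturation, and are abundant in differentiated tissue such as adult heart. Known targets include growth genes such as Hmga2 and members of the Ras family.

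The sequences show why the members are grouped and why their levels are hard to separate. All 10 were matched by name to RefSeq mature sequences (GRCm38.p6), printed 5′ to 3′ with bases 2 to 8, the seed, in capitals. 9 of them carry 1 seed, and let-7d-3p carries another.
let-7g-5p: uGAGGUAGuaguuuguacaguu
let-7f-5p: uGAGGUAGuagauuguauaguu
let-7i-5p: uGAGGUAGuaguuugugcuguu
let-7a-5p: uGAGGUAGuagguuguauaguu
let-7c-5p: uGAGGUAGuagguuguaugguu
let-7b-5p: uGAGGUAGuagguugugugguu
let-7d-5p: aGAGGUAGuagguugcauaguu
miR-98-5p: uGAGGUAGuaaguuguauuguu
let-7e-5p: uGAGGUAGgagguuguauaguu
let-7d-3p: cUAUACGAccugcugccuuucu

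Each of the 10 is 22 nt long, so levels in RPM need no length correction between members. Whether members of different sequence were captured equally well was not tested. The 9 members with the shared seed have the same base at 14 of 22 positions. Of the 36 pairs among them, 4 differ at 1 base and 10 at 2 bases, and the most distant pair differs at 6. Counted from 1 at the 5′ end, let-7a-5p differs from let-7c-5p by A19G, from let-7e-5p by U9G and from let-7f-5p by G12A, and let-7b-5p from let-7c-5p by G17A. The sources used here do not say how reads that match several members or loci were assigned, so the level of each member of such a pair is uncertain taken singly. Only 11 of 1679 RefSeq mature names have this seed, the other 2 being let-7k and miR-1961.

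The members come from 12 hairpins (GRCm38; host genes from GENCODE M21), and 3 mature sequences lie in 2 hairpins each. On chromosome 13, minus strand, the hairpins of let-7d (chr13:48536012-48536114), let-7f-1 (chr13:48537829-48537917) and let-7a-1 (chr13:48538179-48538272) lie together, over exons of the lincRNA 6720427I07Rik. On chromosome 15 those of let-7c-2 (chr15:85706603-85706697) and let-7b (chr15:85707319-85707403) lie over exons of the noncoding Lncppara. On chromosome X let-7f-2 (chrX:151912346-151912428) and miR-98 (chrX:151913214-151913321) lie in introns of Huwe1. let-7g (chr9:106178840-106178927) lies in an intron of Wdr82, and let-7i (chr10:122985640-122985724) over an exon of the pseudogene D630033A02Rik. The last 3 hairpins lie in introns beside miRNAs of other families: let-7a-2 (chr9:41536716-41536811) in 3110039I08Rik, 5211 bp from miR-100; let-7c-1 (chr16:77599657-77599750) in Mir99ahg, 656 bp from miR-99a; and let-7e (chr17:17830352-17830444) in Spaca6, 367 bp from miR-125a.

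Depth recovered from the table was 7874103 to 9197869 reads per library, with 799 to 867 names above 0, and 3 reads corresponded to 0.326 to 0.381 RPM. Heart muscle markers were high in every library (miR-1a-3p at 351573 to 382877 RPM, miR-499-5p at 5217 to 6248 RPM, miR-208a-3p at 147 to 181 RPM, miR-133a-3p at 798 to 1798 RPM). The brain marker miR-124-3p was at 0 reads in all 6, and the liver marker miR-122-5p, the red blood cell marker miR-451a and the leukocyte marker miR-142a-3p lay between 0.734 and 6.09 RPM. The endothelial miR-126a-3p was at 24426 to 31326 RPM and the smooth muscle miR-143-3p at 35533 to 49735 RPM. In bulk RNA, fewer cells of a type and less RNA per cell cannot be told apart. miR-1a-3p, the most abundant of these markers, did not overlap between groups (378281 to 382877 RPM in sham against 351573 to 375821 RPM after I/R). Nor did miR-122-5p (3.05 to 3.58 against 3.67 to 4.32 RPM), while the other muscle markers overlapped. Of all 409 names 15.2% did not overlap, 3.91% with lower and 11.2% with higher values after I/R. Since each library is scaled to the same total, the level of miR-1a-3p touches the level of every other name, and values under other totals are given for the members.

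In RPM, the level of the family as a whole was nearly the same in all 6 libraries. The 9 members with the shared seed together held 51082, 50024 and 49599 RPM in sham replicates 1 to 3 and 51018, 49490 and 52577 RPM in I/R replicates 1 to 3. The means were 50235 ± 764 and 51028 ± 1543 RPM (SD, n = 3 each), which is 5.02 ± 0.08% and 5.10 ± 0.15% of the reads. The groups overlapped. The log2 ratio of I/R to sham was 0.02, beside a pooled within-group SD of 0.03 on that scale, although the difference in RPM was slightly larger than the sham SD alone. The ratio was -0.05 when the totals were taken without miR-1a-3p and miR-1b-5p and -0.08 with median-ratio scaling. No test was made on this sum.

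3 members made up most of the family. let-7g-5p was the most abundant and stood at rank 10 of the whole table, followed by let-7f-5p and let-7i-5p at ranks 11 and 12. Together they held 90.4 ± 0.64% of the 9-member sum in sham and 91.2 ± 0.34% in I/R libraries (SD, n = 3 each). Every I/R value of this share lay above every sham value, by a narrow margin. The highest sham value was 90.8% and the lowest I/R value 91.0%. This separation was not tested, and no background over other sums was computed.

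let-7g-5p, made from the Wdr82 intron alone, was at 18949, 15714 and 18250 RPM in the sham libraries and at 19084, 18624 and 20128 RPM in the I/R libraries. The low value of sham replicate 2 set it apart, and the groups overlapped. let-7f-5p, whose sequence lies in the chromosome 13 and chromosome X hairpins, was at 14440, 15222 and 13821 RPM in the sham libraries and at 13264, 13597 and 13063 RPM in the I/R libraries. All 3 I/R values lay below all 3 sham values. let-7i-5p was at 12967, 13918 and 12960 RPM in the sham libraries and at 14070, 12802 and 14955 RPM in the I/R libraries, with overlap. In all 6 libraries let-7g-5p lay above let-7f-5p, but let-7f-5p lay above let-7i-5p in 4 of 6, so the order of the latter pair was within the spread between libraries.

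The next group of members was several times scarcer, the mean of let-7i-5p being 7.34 times that of let-7a-5p. let-7a-5p was at 1952, 1997 and 1844 RPM in the sham libraries and at 1804, 1808 and 1723 RPM in the I/R libraries, again without overlap. let-7c-5p was at 1405, 1747 and 1414 RPM in the sham libraries and at 1465, 1413 and 1370 RPM in the I/R libraries. Sham replicate 2 was the highest of the 6 for both, and let-7a-5p exceeded let-7c-5p in 6 of 6 libraries although their ranges overlapped. let-7b-5p was at 604, 712 and 592 RPM in the sham libraries and at 603, 580 and 631 RPM in the I/R libraries. let-7d-5p was at 652, 571 and 597 RPM in the sham libraries and at 594, 547 and 583 RPM in the I/R libraries. Groups overlapped for let-7b-5p, let-7c-5p and let-7d-5p, and let-7b-5p and let-7d-5p could not be ordered, the former being higher in 4 of 6 libraries.

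The scarcest members were miR-98-5p and let-7e-5p. miR-98-5p, from the Huwe1 intron that also holds let-7f-2, was at 62.0, 61.4 and 66.3 RPM in the sham libraries and at 74.5, 64.2 and 67.3 RPM in the I/R libraries. let-7e-5p was at 52.2, 81.6 and 55.7 RPM in the sham libraries and at 58.9, 54.3 and 56.4 RPM in the I/R libraries. Apart from the high let-7e-5p value of sham replicate 2, the libraries lay close together, and miR-98-5p was the higher of the pair in 5 of 6. These levels rest on 444 to 722 reads for let-7e-5p and 525 to 611 for miR-98-5p, where counting alone gives an error of up to 4.75% of the level; for let-7g-5p, with 139038 to 174287 reads, it gives at most 0.268%.

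**Figure D1:**
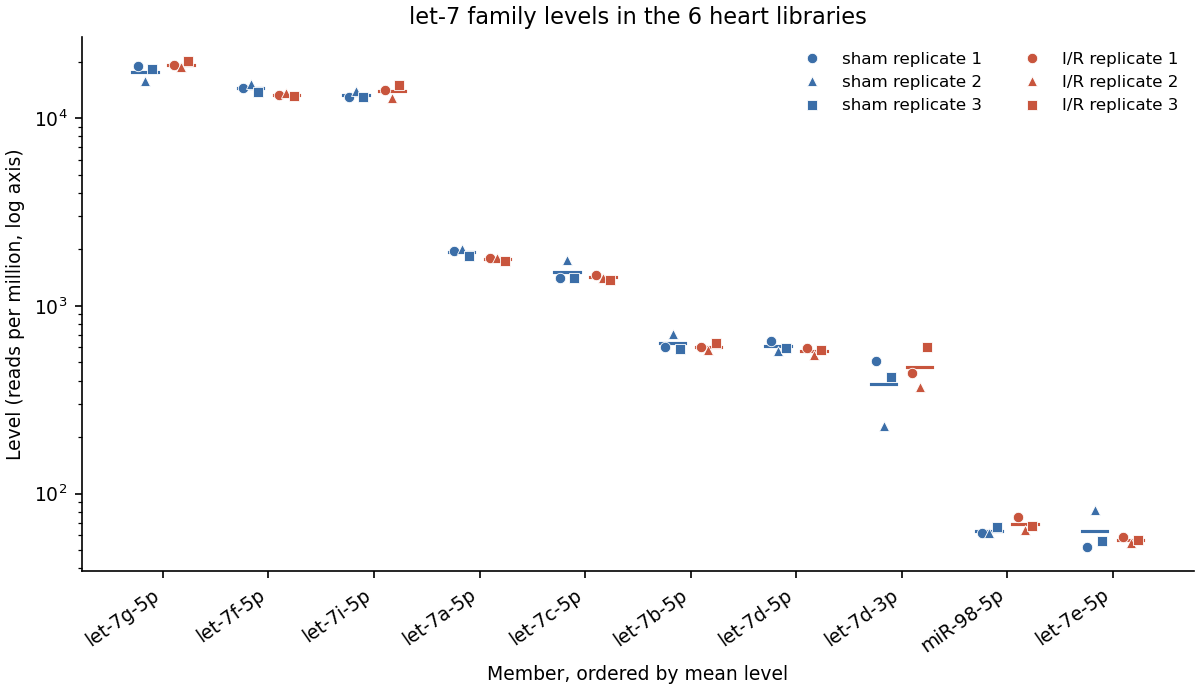
Level of the 10 let-7 family names in RPM on a log axis, in sham (blue) and I/R (red) hearts; each point is 1 library, its shape gives the replicate number and each bar is a mean of 3. The members span from about 60 RPM for let-7e-5p to 18458 RPM, the mean of let-7g-5p, while groups differ little within a member.

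The main comparison asked whether any member differed between I/R and sham hearts. On log2(RPM + 1), a scale that slightly understates the change of the scarce members, limma called 0 of 10 members at an adjusted p under 0.05, against 0 of all 409 names (0%). At an unadjusted p under 0.05 there were 0 of 10 members and 30 of 409 names (7.33%), 7.09% with higher and 0.244% with lower values after I/R. Median-ratio scaling in limma gave 2 members at that unadjusted level (let-7a-5p and let-7f-5p), beside 27 of 409 names. Either reduced total gave 1 (let-7f-5p), beside 22 of 409 names. Quantile normalization gave 1 (let-7i-5p), beside 16 of 409 names. Under these scalings no member had an adjusted p under 0.05. On the recovered reads edgeR with TMM scaling called 0 members and 0% of all names, and 2 members, let-7a-5p and let-7f-5p, had an unadjusted p under 0.05, as had 6.36% of names. edgeR on total counts gave 0 members at either threshold, beside 0% and 7.33% of names. DESeq2 called 0 members and 0.489% of names, with 1 member, let-7f-5p, at an unadjusted p under 0.05, beside 4.16%. In limma with the replicate number as a block, 0 members and 0.978% of names were called, and 1 member, let-7d-3p, had an unadjusted p under 0.05, beside 13.2%. Adjusted p in limma ranged from 0.628 to 0.819 over the members.

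let-7f-5p had the smallest p among the members, with a log2 fold change of -0.12 (SE 0.06, 95% interval -0.27 to 0.02, limma adjusted p = 0.628). let-7a-5p, 1 base apart from it, stood at -0.12 (SE 0.08, interval -0.30 to 0.06, limma adjusted p = 0.661). These were the 2 members of 10 whose groups did not overlap, both with lower values in I/R; of all 409 names 15.2% had separate groups, 3.91% on that side. Both values stayed negative under all 21 alternative settings, between -0.24 and -0.08 for let-7f-5p and between -0.23 and -0.08 for let-7a-5p. let-7a-1 and let-7f-1 lie 261 bp apart in the chromosome 13 cluster; reads from their copies on chromosomes 9 and X have the same sequence and cannot be told apart from them.

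let-7g-5p, with the opposite sign, had a log2 fold change of 0.13 (SE 0.08, interval -0.05 to 0.32, limma adjusted p = 0.661), which was 0.05 without sham replicate 2 and 0.03 or less with median-ratio scaling, TMM in edgeR or DESeq2. let-7i-5p stood at 0.07 (SE 0.08, limma adjusted p = 0.795). Its sign turned under 5 of 21 alternative settings, all with another scaling and not all independent of each other. Its value was 0.11 with quantile normalization. miR-98-5p stood at 0.12 (SE 0.12, limma adjusted p = 0.791) and turned to -0.07 with quantile normalization.

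The remaining members also stayed below the threshold. let-7b-5p, let-7c-5p, let-7d-5p and let-7e-5p had log2 fold changes of -0.07, -0.10, -0.08 and -0.13, with limma adjusted p of 0.792 to 0.819. Without sham replicate 2 the values of let-7b-5p, let-7c-5p and let-7e-5p were 0.02, 0.01 and 0.07, so their signs rested on that library. The same omission left let-7d-5p at -0.12 and separated its groups, on the lower side, as for let-7a-5p and let-7f-5p. These were then 3 of 10 members, with 0 on the higher side, beside 6.85% and 24.9% of all names.

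The 10 members had a median log2 fold change of -0.07, with 6 below 0, beside 0.10 over all 409 names, of which 29.8% were below 0. Of the members 7 lay below the median of all names, and 6 to 10 did under the other settings. Without sham replicate 2, 3 members were below 0 and 10 lay below the median of all names, which was then 0.12. The median of all names itself moved by -0.11 with TMM or quantile normalization and by -0.10 with median-ratio scaling, and 7 members were then below 0. Within the 3 same-numbered pairs of libraries, let-7g-5p and miR-98-5p were higher after I/R in 3 of 3, as were 26.7% of all names, and let-7a-5p, let-7d-5p and let-7f-5p were lower in 3 of 3, as were 9.29%. For all 10 members the 95% interval excluded a 2-fold difference, higher or lower, as it did for 373 of the 409 names. The widest was that of let-7d-3p, from 0.808-fold to 1.97-fold, and the narrowest that of let-7f-5p, from 0.830-fold to 1.02-fold.

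**Figure D2:**
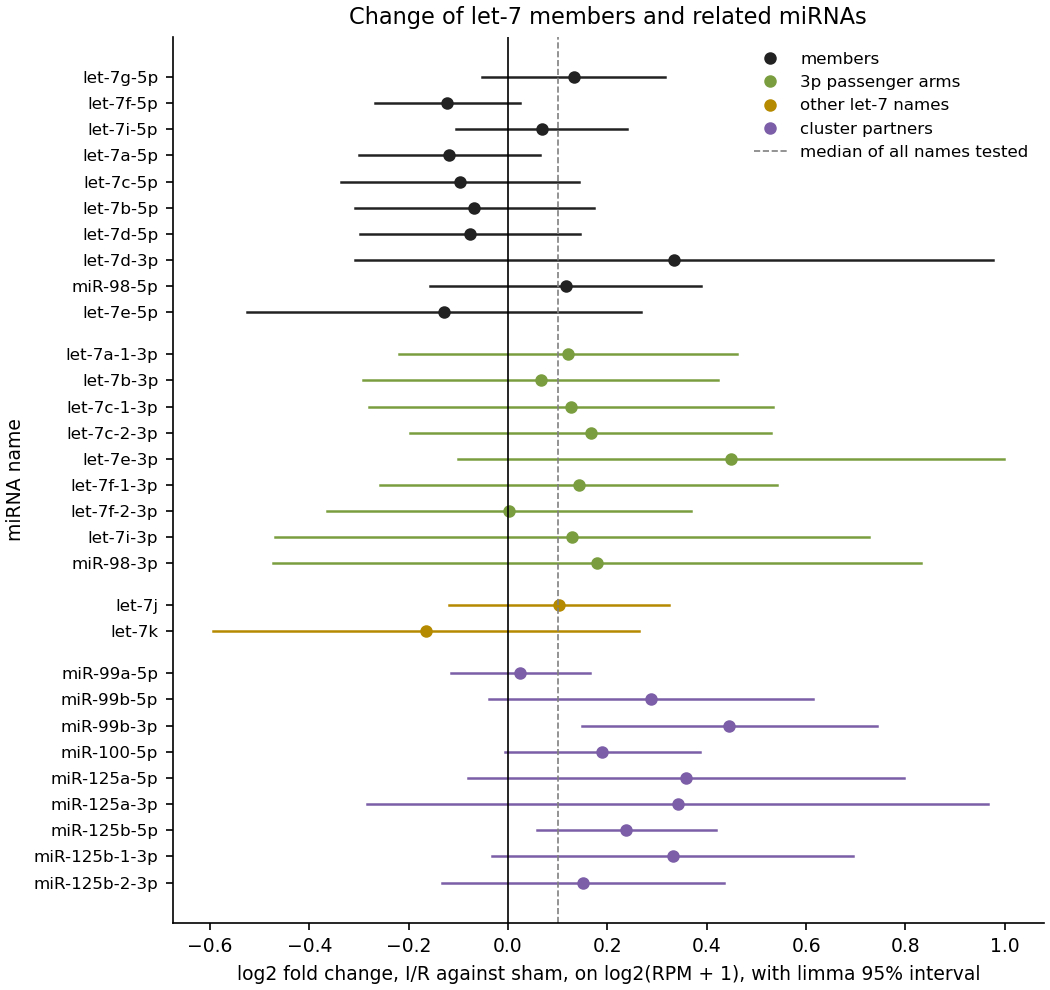
log2 fold change between I/R and sham hearts for the members, 3p passenger arms, other let-7 names and cluster partners that passed the filter; points are limma estimates from 3 libraries per group, bars their 95% intervals, and the dashed line the median of all 409 names. All 10 member intervals include 0, and 6 of the 10 estimates lie below it. All 9 partner estimates lie above 0, but only the intervals of miR-99b-3p and miR-125b-5p exclude 0, before adjustment.

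**Figure D3:**
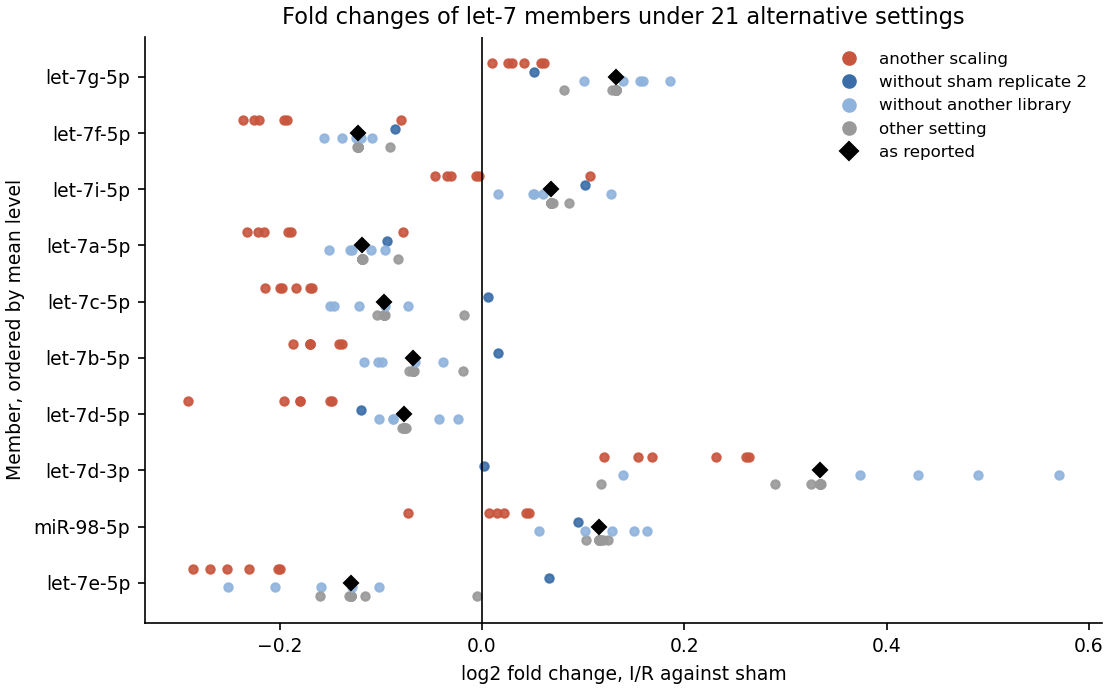
log2 fold change of each member as reported (black diamonds) and under 21 alternative settings (coloured by kind, 1 point each). let-7a-5p, let-7d-5p and let-7f-5p stay below 0 throughout, let-7i-5p crosses 0 under 5 of these settings, and let-7d-3p lies at 0.00 without sham replicate 2.

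In RPM the sum of the family differed little between groups, though its log2 ratio was -0.08 with median-ratio scaling. The shares of let-7a-5p, let-7f-5p and let-7g-5p in this sum separated the groups, and those of the other members overlapped. The levels of 15.2% of all 409 names did so, but that is another measure. Shares in 1 sum depend on each other, and no background was computed for shares. Of the 9-member sum, let-7f-5p took 28.3%, 30.4% and 27.9% in sham and 26.0%, 27.5% and 24.8% in I/R libraries, with means of 28.9 ± 1.38% and 26.1 ± 1.32% (SD, n = 3 each). The groups did not overlap. let-7g-5p took 37.1%, 31.4% and 36.8% in sham and 37.4%, 37.6% and 38.3% in I/R libraries, which separates the groups by a narrow margin. let-7i-5p took 26.4 ± 1.25% and 27.3 ± 1.31%, with overlap. The ratio of let-7f-5p to let-7g-5p was 0.762, 0.969 and 0.757 in sham and 0.695, 0.730 and 0.649 in I/R libraries, with every I/R value below every sham value. These shares do not depend on the total used for scaling, but they were looked at after the levels were known and were not tested.

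The pool was also divided by sequence. Position 12 is described because its groups were seen to separate. Against let-7a-5p, let-7f-5p carries G12A, let-7g-5p and let-7i-5p both carry G12U, and the other 5 share its base there. Apart from position 19, no other position divides the 9 members between 3 bases. The pair with G12U made up 62.5%, 59.2% and 62.9% of the sum in sham and 65.0%, 63.5% and 66.7% in I/R libraries, without overlap, and position 18 divides the members into the same pair and the rest. At positions 1, 9, 11, 16, 17 and 19 the shares overlapped between groups. The 6 members with the base of let-7a-5p made up 9.60 ± 0.64% and 8.82 ± 0.34% (SD, n = 3 each). The seed is the same in all of them.

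Among the libraries, sham replicate 2 stood apart for this family. It held the largest deviation from the 6-library mean for 7 of the 10 members, as it did for 102 of the 409 names. In it let-7e-5p, let-7c-5p, let-7b-5p, let-7f-5p and let-7a-5p lay above their means by 0.46, 0.25, 0.20, 0.13 and 0.11 on the log2 scale, and let-7g-5p and let-7d-3p lay at -0.23 and -0.83. The muscle marker miR-133a-3p was at 1798 RPM there and at 798 to 1006 RPM in the other 5 libraries, and the smooth muscle marker miR-143-3p was at 46661 RPM, beside 35533 and 38005 RPM in the other sham libraries. I/R replicate 3 held the largest deviation for 109 of the 409 names, but for 1 member. The part of these differences in the results on let-7 was not tested.

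**Figure D4:**
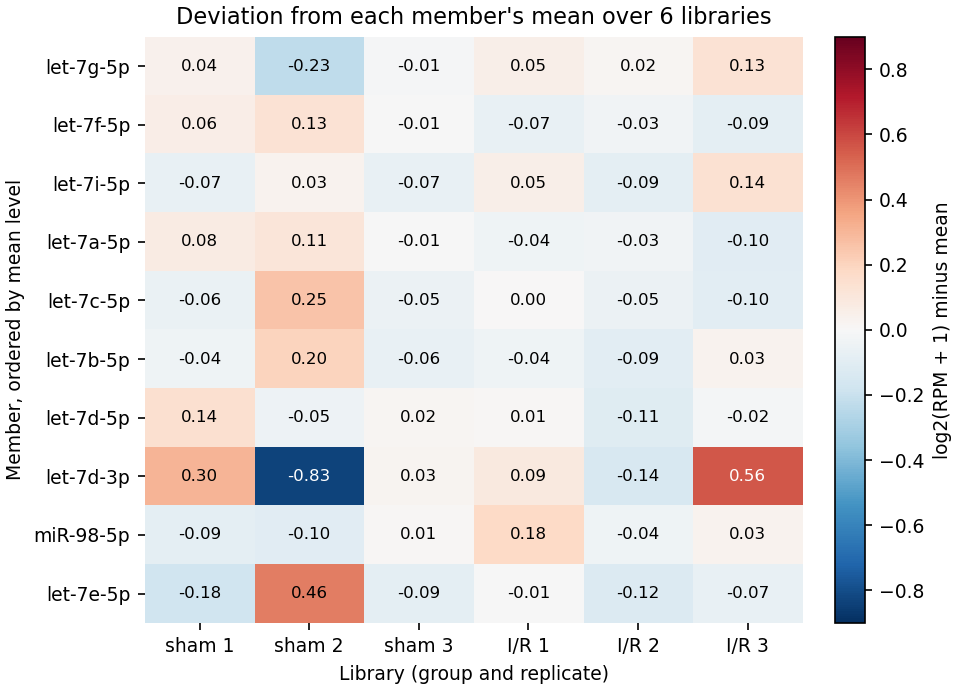
Deviation of each member from its own mean over the 6 libraries, in log2(RPM + 1), by library; red is above and blue below the mean. Sham replicate 2 has the strongest colours, at -0.83 for let-7d-3p and 0.46 for let-7e-5p.

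let-7d was the precursor of the family with both arms abundant, and its 3p arm was the most variable member. let-7d-3p was at 506, 230 and 417 RPM in the sham libraries and at 436, 371 and 603 RPM in the I/R libraries. Its lowest value was that of sham replicate 2 and its highest that of I/R replicate 3, and the groups overlapped. The coefficient of variation within groups was 36.7% and 25.6%, where counting error gives at most 2.22% and let-7d-5p varied by 6.80% and 4.26%. let-7d-3p had the highest fold change among the members, 0.33 on the log2 scale (SE 0.28, interval -0.31 to 0.98, limma adjusted p = 0.705). Without sham replicate 2 it was 0.00 and without I/R replicate 3 it was 0.14, so the difference rested on these libraries.

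Arm balance was taken as log2(5p/3p), with 1 RPM added to each arm. For let-7d it was 0.36, 1.31 and 0.52 in sham and 0.45, 0.56 and -0.05 in I/R libraries. The 5p arm was thus the higher one in 5 of 6 libraries, and in I/R replicate 3 the 3p arm was slightly higher. Means were 0.73 ± 0.51 and 0.32 ± 0.33 (SD, n = 3 each), a change of -0.41 (SE 0.29, interval -1.11 to 0.29, limma adjusted p = 0.745 over 94 precursors). None of the 94 precursors passed (0%), and 6 had an unadjusted p under 0.05. Without sham replicate 2 the change was -0.12.

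4 other precursors of the family had both arms above the filter under names that differ only in the arm ending. Each was dominated by the 5p arm. Names such as let-7a-1-3p, let-7c-2-3p and let-7f-1-3p also passed, but no 5p name belongs to their copy alone, and they were not fitted. With 1 RPM added to each arm, the ratio of the 5p to the 3p level was 23.1 to 30.2 for let-7b. It was 4.39 to 14.1 for let-7e and 18.6 to 34.8 for miR-98. The added 1 RPM lowers such ratios, most where the 3p arm is scarce. miR-98-3p was at 0.791 to 2.41 RPM and let-7i-3p at 0.741 to 1.95 RPM. let-7e-3p was at 9.78, 4.86 and 8.77 RPM in the sham libraries and at 11.1, 8.93 and 12.1 RPM in the I/R libraries, lowest in the library where let-7e-5p was highest. The estimated difference was toward the 3p arm in all 5 precursors, let-7d included, and in 58.5% of the 94, with limma adjusted p of 0.701 to 0.967 for the 5.

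**Figure D5:**
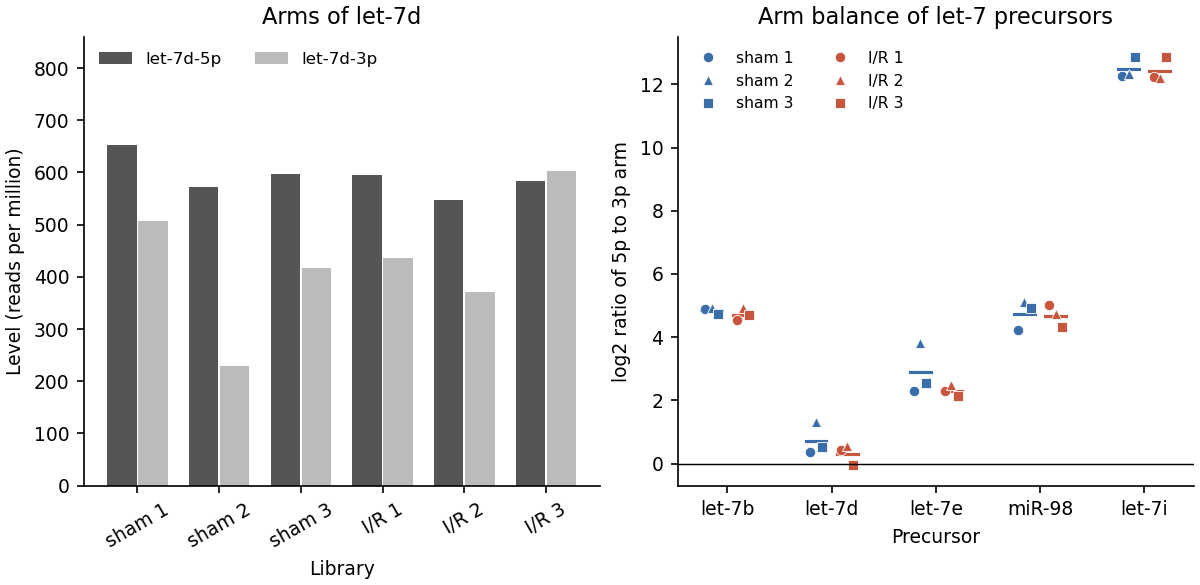
Left, level of the 2 arms of let-7d in each library in RPM (bars). Right, arm balance as log2(5p/3p), with 1 RPM added to each arm, for 5 precursors of the family. Points are libraries, shapes replicates and bars means of 3. let-7d lies near 0, between -0.05 and 1.31, and let-7i above 12, where the 3p arm is scarce.

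The other passenger arms were scarce. Of 11 named, 9 passed the filter, 0 were called by limma, and 9 had fold changes above 0, with a median of 0.13, beside 70.2% of all names above 0. That count was 6 with TMM, with quantile normalization or without sham replicate 2, and 7 under median-ratio scaling. let-7a-1-3p was at 84.4, 62.3 and 85.6 RPM in the sham libraries and at 87.8, 78.5 and 84.2 RPM in the I/R libraries, and let-7c-2-3p at 81.6, 61.1 and 76.3 RPM in the sham libraries and at 93.1, 69.1 and 84.1 RPM in the I/R libraries. These names have identical sequences in RefSeq, and let-7a-1-3p took 48.6% to 53.2% of their sum in each library, so these 2 names cannot be told apart. let-7g-3p, the passenger of the most abundant member, was at 0.610 RPM or less and was left out by the filter; its groups did not overlap (0, 0.113 and 0.247 RPM in sham against 0.610, 0.489 and 0.381 RPM after I/R), but the values rest on 0 to 5 reads.

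let-7j, another name of the family, was abundant but does not share the seed. It is compared here with let-7i-5p, with bases 2 to 8 in capitals.
let-7i-5p: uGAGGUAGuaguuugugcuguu
let-7j: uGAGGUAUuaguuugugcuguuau
Over the 22 bases of let-7i-5p, let-7j differs from it by G8U, within the seed, and it is 2 nt longer. let-7j was at 1400, 1560 and 1421 RPM in the sham libraries and at 1564, 1433 and 1714 RPM in the I/R libraries, between let-7a-5p and let-7c-5p in mean level, with a log2 fold change of 0.10 (SE 0.10, limma adjusted p = 0.742). Its ratio to let-7i-5p was 0.108 to 0.115 in the 6 libraries, and both had the same order of libraries at the top, I/R replicate 3 and then I/R replicate 1. How many let-7j reads were read from its own locus was not tested. let-7k, which has the seed, was at 2.56 to 3.96 RPM, and miR-1961 at 0 to 0.254 RPM.

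The miR-99/100 and miR-125 families, which have members beside 3 of the let-7 hairpins, were described as cluster partners. Of 11 partner names 9 passed the filter, 9 had fold changes above 0 (70.2% of all names), with a median of 0.29 (0.10 over all names). limma called 0 of them (0% of all names), with 2 at an unadjusted p under 0.05, miR-99b-3p and miR-125b-5p (7.33% of all names). With median-ratio scaling, quantile normalization or TMM, or without sham replicate 2, 8 of the 9 were above 0. Groups were separate on the higher side for miR-99b-3p, miR-99b-5p and miR-125b-5p, where 11.2% of all names were. miR-125b-5p was at 3441, 3353 and 3832 RPM in the sham libraries and at 4153, 4157 and 4206 RPM in the I/R libraries, with a log2 fold change of 0.24 (SE 0.08, limma adjusted p = 0.598). miR-99b-3p was at 46.8, 47.1 and 44.1 RPM in the sham libraries and at 61.2, 57.0 and 71.5 RPM in the I/R libraries (0.45, SE 0.13, limma adjusted p = 0.598). miR-99b-5p was at 3516, 3468 and 3518 RPM in the sham libraries and at 3859, 3654 and 5539 RPM in the I/R libraries (0.29, SE 0.14, limma adjusted p = 0.628).

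Neighbours at 3 loci were set side by side. miR-125a-5p, 367 bp from let-7e, was at 1564, 972 and 1490 RPM in the sham libraries and at 1650, 1422 and 2034 RPM in the I/R libraries, with a log2 fold change of 0.36 (SE 0.19, limma adjusted p = 0.628), while let-7e-5p stood at -0.13. Sham replicate 2 was the lowest library for miR-125a-5p and the highest for let-7e-5p. Without it miR-125a-5p stood at 0.14 and let-7e-5p at 0.07, so the gap between them went from 0.49 to 0.07. The partners miR-99b-5p and miR-99b-3p, whose hairpin was not located here, stayed at 0.28 and 0.46 without that library. At the let-7c-1 locus miR-99a-5p was at 73035 to 83192 RPM over the 6 libraries, with a log2 fold change of 0.03 (SE 0.06), or -0.03 without sham replicate 2. At the let-7a-2 locus miR-100-5p was at 9057, 9196 and 10195 RPM in the sham libraries and at 9844, 10857 and 11793 RPM in the I/R libraries (0.19, SE 0.09, limma adjusted p = 0.598), and its gap to let-7a-5p was 0.31, or 0.26 without sham replicate 2. miR-125b-2-3p, at 50.9 to 65.9 RPM, stood at 0.15 (SE 0.13). The difference between let-7 members and partners was not itself tested.

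Of 100 other names with a mean of at least 100 RPM, those whose log2 levels followed the summed family most closely over the 6 libraries were miR-320-3p, miR-146a-5p, miR-149-5p, miR-1198-5p and miR-151-3p, with Pearson's r of 0.93, 0.93, 0.91, 0.90 and 0.89. These are descriptions over 6 libraries that share their scaling. miR-146a-5p, for example, was at 131, 126 and 112 RPM in the sham libraries and at 137, 119 and 214 RPM in the I/R libraries, and like the family sum it was highest in I/R replicate 3.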

How the data were processed

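Small RNA was profiled in 3 sham and 3 I/R libraries of mouse heart; groups and replicate numbers come from the labels, which call the replicates biological. Titles read miRNA-seq, whereas the protocol in the labels is for poly(A) mRNA. The tools fastp 0.23.0 and bcl2fastq 2.19.1.403 and the build mm10 appear in the submitters' processing notes. For the aligner, the annotation, strand and multi-locus reads nothing is given in the sources used here. The deposited signal, called FPKM in the table's name, is reads times 1 factor per library. It equals 43.5 per RPM in every library, which is RPM per kilobase with a length of 23 nt for every name. The design had assumed FPKM; the log-scale test fits either. Division by the smallest value above 0 gave whole reads for 100% of values (tolerance 0.01 reads), 7874103 to 9197869 per library. No molecular identifiers are mentioned, so the errors from read numbers cover counting error only. Whether a library is 1 heart or a pool is not stated, and p-values measure the spread between these libraries.

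limma 3.58.1 (R 4.3.3, trend, two-sided, Benjamini-Hochberg over all 409 names, threshold 0.05) was run on log2(RPM + 1), and on the log2 arm ratio over 94 precursors; it was tested on simulated data. Added alternatives on the recovered reads were edgeR 4.0.16 (TMM and total counts) and DESeq2 1.42.0, which called 0, 0 and 2 of 409 names. Within groups, every pair of libraries differed by more than sampling noise (chi-square per degree of freedom 33.4 to 133). Members, lists and tests were chosen with earlier results of these data known. Named were all members, related names that passed the filter with a mean of at least 50 RPM or separate groups, and the 5 names most like the family sum; let-7e-3p, let-7g-3p, let-7k and miR-1961 were named after their values were seen.

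Same-numbered sham and I/R libraries deviated together from their group means (r = 0.14, 0.28 and 0.16, each above 0.1; other pairs -0.19 to 0.07). This pairing comes from the values, not the labels, and a fit with the replicate block was an alternative.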

Additional observations from a re-analysis of the deposited data

How the results depend on the processing

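Under all 21 alternatives 0 members, passenger arms and cluster partners were called. The lowest adjusted p of a member was 0.359, for let-7d-3p in limma with the replicate block. The block changed no call among these names, 0 in each case, although over all 409 names it raised the count of limma calls from 0 to 4. Of 210 member values 9 turned sign. Without sham replicate 2 they were 0.0161 for let-7b-5p, 0.0065 for let-7c-5p and 0.0667 for let-7e-5p, and over the libraries left out one at a time these members ranged from -0.1167 to 0.0161, from -0.1506 to 0.0065 and from -0.2508 to 0.0667. For let-7i-5p they were -0.0348 with median-ratio scaling, -0.0029 with totals without the 10 most abundant names, -0.0055 with totals without miR-1a-3p and miR-1b-5p, -0.0463 in edgeR with TMM and -0.0305 in DESeq2. For miR-98-5p it was -0.0730 with quantile normalization. The log2 ratio of the family sum, 0.02, was -0.0805 with median-ratio scaling, -0.0486 with totals without the 10 most abundant names and -0.0512 with totals without the miR-1 names, and 0.0005 to 0.0441 with a library left out. The let-7d arm change lay between -0.59 and -0.12. The count of members with separate groups, 2 in all libraries, can only stay or rise when a library is left out. It was 3 without any 1 sham library, beside 22.7%, 31.8% and 23.0% of all names without replicates 1, 2 and 3, and 5 without I/R replicate 2, beside 30.8%. The cause of these shifts was not tested. Leaving out libraries for that count, and the edgeR and DESeq2 fits, were chosen after seeing the data. With 3 libraries per group, the intervals given show which differences remain compatible with these data, before adjustment over all names. The simulated data served to check the fit. The smallest difference that could have been detected for these members was not derived from them.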
